A study of Mus musculus with 16 samples.

Results

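Genes of neurohormonal signalling to the heart were followed in the left ventricle of mice after pressure overload: the adrenergic receptor genes Adrb1, Adra1a and Adra1b, the angiotensin receptor gene Agtr1a, the angiotensin-converting enzyme gene Ace, the angiotensinogen gene Agt, the endothelin receptor genes Ednra and Ednrb, and the muscarinic receptor gene Chrm2. Probe sets were taken where the platform annotation gives exactly 1 gene symbol and that symbol is one of these 9. This gave 6 probe sets of 22690 in the table, for 4 of the 12393 genes that have such a probe set: Ace and Ednrb with 2 each, and Adra1b and Agt with 1 each. No probe set matched Adrb1, Adra1a, Agtr1a, Ednra or Chrm2, so these 5 genes are not analysed here, and of the receptors in the set only Adra1b and Ednrb could be followed.

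The study compared C57BL/6J mice aged 12 to 14 weeks in 4 groups of 4, each animal on its own array: male TAC, male sham, female TAC and female sham. TAC, transverse aortic constriction, is a surgical narrowing of the aortic arch that makes the left ventricle pump against a higher pressure. Left ventricular RNA was taken 14 days after the operation, the mice of all 4 groups carried no genetic change named in the labels, and buprenorphine was given after surgery in all of them. Ketamine with isoflurane is named for the TAC operation, and the labels name no anaesthetic for the sham operation. The title of the series asks for the sex-specific early response to this load.

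Sympathetic nerves and circulating hormones adjust the heart through receptors that act on G proteins. Noradrenaline acts on β-adrenergic receptors, which raise cyclic AMP and contractility, and on α1-adrenergic receptors, which signal through Gq and phospholipase C and promote growth of the cardiomyocyte. Renin cuts angiotensinogen to angiotensin I, and angiotensin-converting enzyme, mostly on endothelial cells, cuts this to angiotensin II, which acts on the AT1 receptor. Endothelin acts on endothelin A and B receptors, and acetylcholine from the vagus on M2 muscarinic receptors, which slow the heart.

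The deposited signals are on a linear scale in arbitrary units. After the authors' global scaling the median signal of the arrays lay between 189.8 and 222.3, and the arrays of a group correlated at 0.914 to 0.949. Of the members' probe sets, 4 were above the signal limit used for the main test, which dropped the dimmest 40% by mean log2(signal + 16), a limit at a signal of 130.8. The probe sets of Adra1b (a back-transformed mean signal of 118.2, at percentile 37.6 of all probe sets) and of Agt (26.0, at percentile 9.16) were dim and were tested in the same model without the limit. The fold changes below are differences of means of log2(signal + 16) between 4 and 4 arrays, which understate changes of dim probe sets. All adjusted p values come from limma with Benjamini-Hochberg adjustment, with adjusted p below 0.05 as the threshold. A dim signal cannot be told from cross-hybridisation, and signals of different probe sets are not compared.

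Control signals read as measures of RNA quality moved with the operation. The 3′ over 5′ ratio of the Gapdh control probe sets, which rises when transcripts are shortened at their 5′ end, was 1.004 to 1.16 on male TAC arrays and 0.837 to 0.921 on male sham arrays. It was 0.958 to 1.03 on female TAC arrays and 0.785 to 0.918 on female sham arrays. The log2 signal of the 5′ 18S rRNA control was 9.06 to 13.2 on male TAC arrays and 12.6 to 13.8 on male sham arrays, and 9.31 to 10.7 on female TAC arrays and 10.7 to 12.8 on female sham arrays. The Gapdh ratio did not overlap between TAC and sham arrays, so the operation and this ratio cannot be fully told apart here. For the members, the values with each measure as a covariate stand beside the calls they end. For the other genes only some of these values are given, so a gene shown without one need not be stable. The calls kept are counted at the end.

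Of the 6 probe sets, 1 was higher and 2 were lower after TAC when the sexes were averaged: Ace (1451911_a_at) was 1.49-fold higher, Adra1b 2.38-fold lower and Ednrb (1426314_at) 1.36-fold lower. In this comparison limma called 28.7% of all probe sets after the signal limit, 12.9% as higher and 15.8% as lower, and 16.7% without it, 9.36% as lower. In males alone 1 probe set was called, Adra1b, lower, where 17.8% of all probe sets were called after the limit and 9.46% without it, 5.25% as lower. In females alone 1 was called, Ace, higher, where the shares were 15.1%, 6.46% as higher, and 7.89%. A member's call is therefore not rare among the probe sets of the array.

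**Figure D1:**
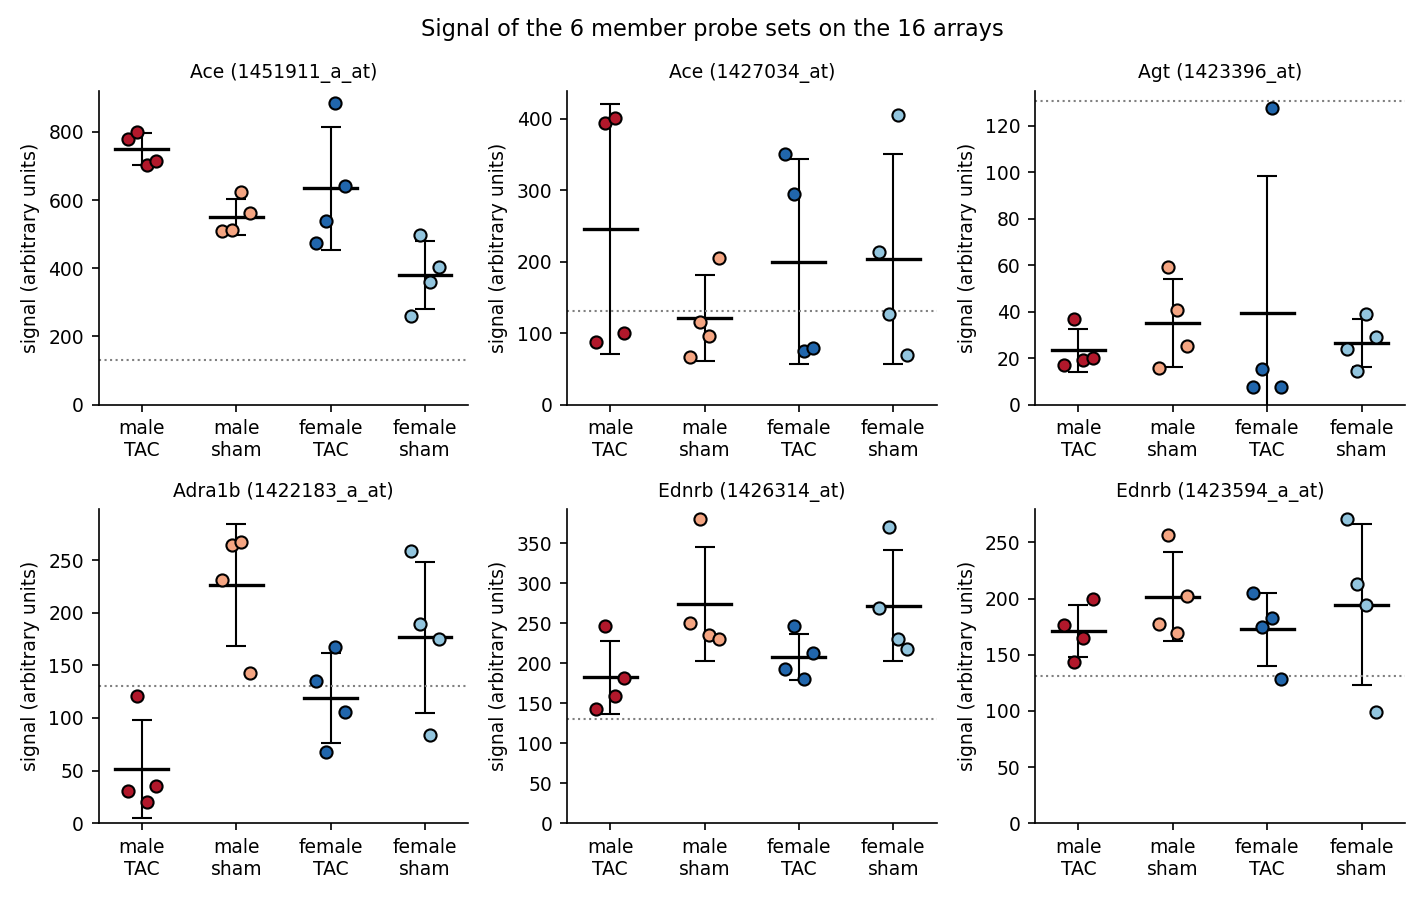
Signal in arbitrary units (linear vertical axis from 0) of the 6 probe sets in the 4 groups; points are arrays, thick lines are group means, bars are ± SD (n = 4, the lower bar of Agt in female TAC being cut at 0) and the dotted line is the signal limit of 130.8. The 4 male TAC arrays lie above the 4 male sham arrays for Ace (1451911_a_at) and below them for Adra1b, and Agt lies under the limit on every array.

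Ace encodes the peptidase that makes angiotensin II and also degrades bradykinin. On 1451911_a_at its signal was 779.5, 798.8, 703.6 and 716.1 on male TAC arrays, against 510.2, 512.4, 622.5 and 561.2 on male sham arrays. On female TAC arrays it was 473.9, 538.9, 884.0 and 642.5, against 259.4, 497.5, 360.7 and 405.3 on female sham arrays. In males the groups did not overlap. In females they did, the highest sham array lying above the lowest TAC array.

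The means were 749.5 ± 46.7 in male TAC and 551.6 ± 52.8 in male sham, and 634.8 ± 180.0 in female TAC and 380.7 ± 98.9 in female sham (SD, n = 4 each). Averaged over the sexes Ace rose by a log2 fold change of 0.57 ± 0.13 (SE, adjusted p = 0.00291), and in females by 0.71 ± 0.19 (adjusted p = 0.0145). In males the difference was 0.43 ± 0.19 and missed the threshold (adjusted p = 0.128), with a 95% confidence interval of 0.04 to 0.83, although its arrays did not overlap, as was the case for 19.6% of the probe sets above the limit. The female response exceeded the male one by 0.28 (95% confidence interval -0.28 to 0.84, adjusted p = 0.901), so a difference between the sexes was not shown. The female call ended when female TAC 3 was left out (0.54, adjusted p = 0.0614) and also when female sham 1 was (0.55, adjusted p = 0.0592). It ended as well with the Gapdh ratio as a covariate, at a value of 0.39 (adjusted p = 0.468). Once the Gapdh ratio entered as a covariate, the averaged difference was 0.17 (adjusted p = 0.781), while with the 18S signal it stayed past the threshold.

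The other Ace probe set, 1427034_at, was dimmer and scattered over a wide range. It read 87.5, 394.1, 401.6 and 100.9 on male TAC arrays, against 66.6, 115.8, 96.4 and 205.5 on male sham arrays, and 350.7, 295.4, 75.0 and 79.5 on female TAC arrays, against 213.5, 126.7, 405.6 and 69.3 on female sham arrays. Within male TAC and female TAC the arrays fell into a high and a low pair. Its averaged difference was 0.34 with a 95% confidence interval of -0.51 to 1.18 (adjusted p = 0.580), an interval that holds the value of 1451911_a_at. A difference between the probe sets was not tested.

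Ace has a start at the head of the gene and, in RefSeq, a second one within it, and both windows are shown because the array does not tell the start used. Mammalian Ace is known for a second, intragenic promoter that gives the short form of the testis. Each window runs from 250 bases before to 50 bases after the start in RefSeq on GRCm38.p6 and is written 5′ to 3′ on the gene's strand.
Ace upstream promoter, chr11:105967698-105967997, plus strand: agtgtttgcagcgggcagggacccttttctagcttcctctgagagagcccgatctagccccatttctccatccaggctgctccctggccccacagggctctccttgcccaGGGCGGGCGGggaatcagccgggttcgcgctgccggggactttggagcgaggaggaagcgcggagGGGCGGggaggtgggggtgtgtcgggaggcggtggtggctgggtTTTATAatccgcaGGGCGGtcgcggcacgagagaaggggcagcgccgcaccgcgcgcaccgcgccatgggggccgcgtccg
Ace intragenic promoter, chr11:105974939-105975238, plus strand: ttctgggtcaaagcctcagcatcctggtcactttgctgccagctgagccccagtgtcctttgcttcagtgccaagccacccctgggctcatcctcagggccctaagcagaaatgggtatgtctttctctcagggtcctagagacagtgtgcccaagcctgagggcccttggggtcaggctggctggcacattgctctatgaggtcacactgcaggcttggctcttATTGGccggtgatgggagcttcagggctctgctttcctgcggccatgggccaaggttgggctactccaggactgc
Capitals mark matches to 6 motifs, searched on either strand in all 32851 RefSeq windows of this length. The TATA box was spelled TATAAA and occurs in 13.6% of the windows. The GC box was spelled GGGCGG and occurs in 35.7%. The CCAAT motif occurs in 37.4%. The E-box was spelled CACGTG and occurs in 7.15%. The cyclic AMP response half-site was spelled TGACG and occurs in 20.8%. The GATA site was spelled AGATAA and occurs in 11.2%. A match is a description and does not show a bound factor. The upstream Ace window held a TATA match that begins 31 bases before the start, on the opposite strand, and 4 GC box matches, of which a pair overlaps. The intragenic window held 1 CCAAT match.

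Among 12458 other probe sets above the limit with 1 symbol, the pattern of Ace (1451911_a_at) over the 16 arrays was most like those of Pmepa1 (Pearson's r = 0.876, Spearman's rho = 0.885), Uck2 (0.870 and 0.779) and Csrp3 (0.870 and 0.838). The arrays share the split between TAC and sham, so these values describe likeness only.

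Agt encodes angiotensinogen, the substrate of renin, made mostly by the liver. It was dim on every array: 17.1, 37.0, 19.2 and 20.0 in male TAC, against 15.9, 59.2, 40.7 and 25.2 in male sham, and 7.8, 15.5, 127.9 and 7.4 in female TAC, against 24.0, 14.4, 39.1 and 29.2 in female sham. Female TAC 3 stood far above the other arrays of its group. The averaged difference was -0.20 (95% confidence interval -0.90 to 0.50, adjusted p = 0.769), and no change was detectable at these signals.

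Adra1b encodes the α1B-adrenergic receptor of ventricular myocytes. It had signals of 30.6, 121.1, 19.8 and 35.3 on male TAC arrays, against 231.4, 264.4, 267.6 and 142.9 on male sham arrays. On female TAC arrays they were 135.3, 67.3, 167.8 and 105.8, against 258.4, 189.6, 83.5 and 175.4 on female sham arrays. The male groups did not overlap, as was the case for 13.8% of all probe sets without controls, and the female groups overlapped widely.

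Adra1b averaged 51.7 ± 46.7 in male TAC and 226.6 ± 58.1 in male sham, and 119.1 ± 42.8 in female TAC and 176.7 ± 71.9 in female sham (SD, n = 4 each). In males it fell 4.04-fold (log2 fold change -2.01 ± 0.43 SE, 95% confidence interval -2.91 to -1.12, adjusted p = 0.00408), and averaged over the sexes 2.38-fold (-1.25 ± 0.30, adjusted p = 0.00622). In females the difference was -0.48 (95% confidence interval -1.38 to 0.41, adjusted p = 0.602). The female response minus the male response was 1.53 (95% confidence interval 0.26 to 2.80, unadjusted p = 0.0203), which did not hold after adjustment over all probe sets (adjusted p = 0.744). Leaving out each array in turn ended neither call, and the male value then lay between -2.42 and -1.78. The fold depends on the pseudocount at these signals: the male value was -1.38 with a pseudocount of 64 and -2.42 with 1, and the averaged value -0.875 and -1.48, with both calls kept.

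Both calls ended with either quality covariate. In males the value was -2.03 with the Gapdh ratio (adjusted p = 0.245) and -2.21 with the 18S signal (adjusted p = 0.0672), and averaged over the sexes -1.26 (adjusted p = 0.373) and -1.40 (adjusted p = 0.0925). On 3 of the 4 male TAC arrays the signal was 35.3 or less, where the median signal of an array is 189.8 or more, so the male fold rests on dim values.

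RefSeq gives Adra1b a pair of start sites, with an AT-rich upstream window and a GC-rich downstream one, and both are shown because the probe set does not tell them apart.
Adra1b upstream promoter, chr11:43901188-43901487, minus strand: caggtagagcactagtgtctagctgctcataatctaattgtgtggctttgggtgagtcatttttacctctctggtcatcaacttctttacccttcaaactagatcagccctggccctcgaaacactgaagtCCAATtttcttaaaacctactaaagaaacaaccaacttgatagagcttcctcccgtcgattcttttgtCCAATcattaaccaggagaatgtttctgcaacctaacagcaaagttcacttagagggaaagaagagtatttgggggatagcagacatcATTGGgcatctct
Adra1b downstream promoter, chr11:43836440-43836739, minus strand: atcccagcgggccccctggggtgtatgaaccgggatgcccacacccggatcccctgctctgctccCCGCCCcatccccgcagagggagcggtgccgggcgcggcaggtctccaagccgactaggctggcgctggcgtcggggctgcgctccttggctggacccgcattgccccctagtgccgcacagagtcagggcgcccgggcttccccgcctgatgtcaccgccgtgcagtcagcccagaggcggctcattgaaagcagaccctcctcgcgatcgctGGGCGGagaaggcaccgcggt
Capitals mark the same motifs as above. The upstream window, with 42.3% G and C, held 3 CCAAT matches, the downstream one, with 71.3%, 2 GC box matches.

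Ednrb encodes the endothelin B receptor, which endothelial cells use to clear endothelin and to release nitric oxide. On 1426314_at it had signals of 143.0, 246.5, 158.8 and 182.0 on male TAC arrays, against 250.1, 380.7, 235.7 and 230.2 on male sham arrays. Female TAC arrays had 192.9, 246.7, 179.9 and 212.8, against 269.4, 370.6, 230.2 and 218.2 on female sham arrays. Most TAC arrays lay below the sham arrays of their sex, and in each sex 1 TAC array, at 246.5 in males and 246.7 in females, lay among the sham arrays.

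The means were 182.6 ± 45.5 in male TAC and 274.2 ± 71.5 in male sham, and 208.1 ± 29.1 in female TAC and 272.1 ± 69.2 in female sham (SD, n = 4 each). Averaged over the sexes Ednrb fell by 0.44 on the log2 scale (± 0.16 SE), just past the threshold (adjusted p = 0.0493). In males the difference was -0.54 (adjusted p = 0.119) and in females -0.34 (adjusted p = 0.364). The averaged call ended without 11 of the 16 arrays, each left out alone (values -0.52 to -0.36 over all 16), with no signal limit (adjusted p = 0.0939), after quantile normalization (-0.37, adjusted p = 0.104), after median centring (-0.36, adjusted p = 0.107), with the Gapdh ratio (-0.85, adjusted p = 0.149) and with the 18S signal (-0.60, adjusted p = 0.135). The value stayed below 0 in all of these.

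On the second Ednrb probe set, 1423594_a_at, the signal was 143.9 to 199.7 in male TAC and 169.4 to 257.1 in male sham, and 128.4 to 205.3 in female TAC and 98.7 to 271.2 in female sham. The groups overlapped in both sexes. The averaged difference was -0.15 (95% confidence interval -0.56 to 0.25, adjusted p = 0.604), with the same sign as on 1426314_at.

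The RefSeq promoter window of Ednrb is shown as that of the other member called lower.
Ednrb promoter, chr14:103843652-103843951, minus strand: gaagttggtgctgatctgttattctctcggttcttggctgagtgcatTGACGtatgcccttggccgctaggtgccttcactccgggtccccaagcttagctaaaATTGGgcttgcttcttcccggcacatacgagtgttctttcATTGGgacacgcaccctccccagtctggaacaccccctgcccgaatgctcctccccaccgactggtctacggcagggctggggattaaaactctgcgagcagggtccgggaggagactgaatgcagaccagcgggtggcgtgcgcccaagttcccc
It held a cyclic AMP response half-site that begins 203 bases before the start and 2 CCAAT matches. CCAAT, in 37.4% of all windows, was the only motif searched that both this window and one of Adra1b held. The patterns most like that of Ednrb (1426314_at) over the 16 arrays were those of Hnrnpc (Pearson's r = 0.850, Spearman's rho = 0.827), Slc26a6 (0.828 and 0.826) and Fgf13 (0.827 and 0.804).

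**Figure D2:**
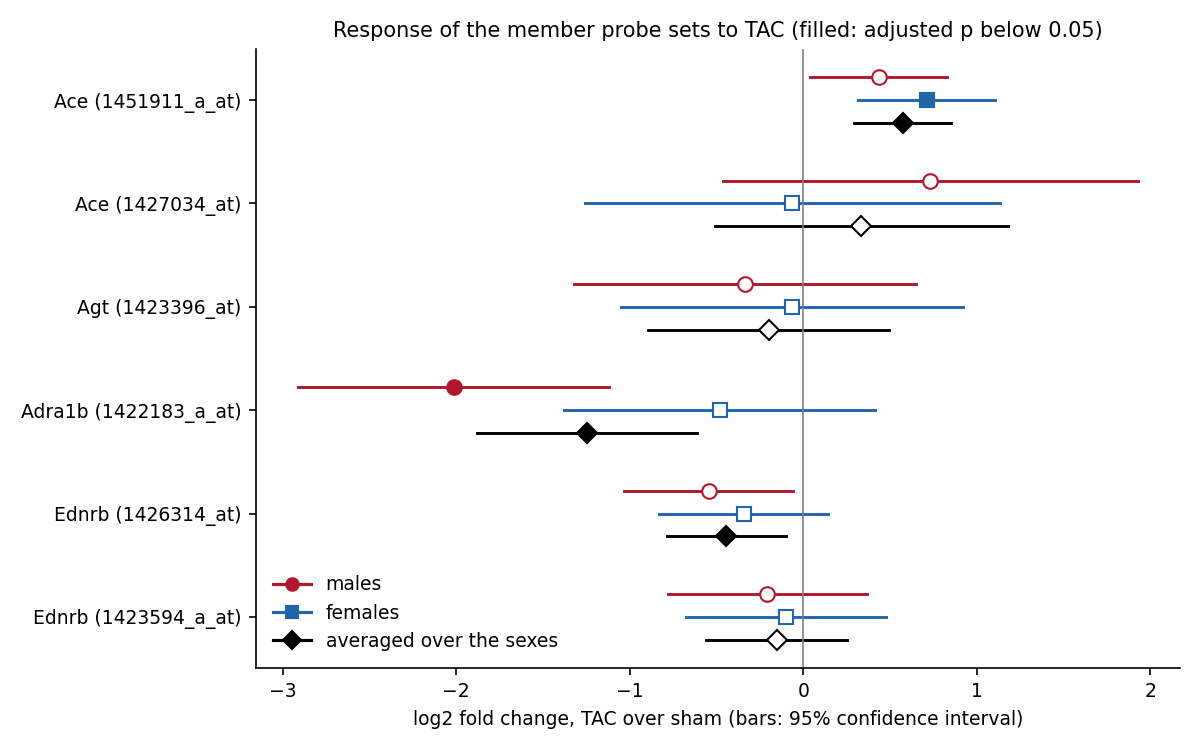
Log2 fold change of TAC over sham (horizontal axis) for each probe set, by sex and as the average of both sexes; bars are 95% confidence intervals and filled symbols have adjusted p below 0.05. Ace (1451911_a_at) lies above 0 in both sexes, Adra1b reaches -2.01 in males and -0.48 in females, and the intervals of Agt and of the second probe sets of Ace and Ednrb cross 0.

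Between the sexes, limma called 0 of the 6 probe sets, among shams, after TAC and for the difference of the responses. In each of these 3 comparisons 1 of the 6 had an unadjusted p below 0.05, where 10.5%, 6.44% and 6.61% of all probe sets above the limit did, in that order, and 8.94%, 5.84% and 6.26% without it. The shares called after adjustment were 0.309%, 0.0663% and 0.0% above the limit, in the same order, and 0.23%, 0.0575% and 0.0% without it. Among shams Ace (1451911_a_at) was lower in females on every array, at 259.4 to 497.5 in female sham against 510.2 to 622.5 in male sham (log2 difference -0.55, unadjusted p = 0.00923, adjusted p = 0.291). Such a separation of the sham groups occurred for 7.09% of the probe sets above the limit. On the other Ace probe set, 1427034_at, the sham groups overlapped and the difference had the opposite sign (0.53, adjusted p = 0.799). After TAC Adra1b was at 67.3 to 167.8 in female TAC and 19.8 to 121.1 in male TAC (log2 difference 1.15, unadjusted p = 0.0148, adjusted p = 0.780).

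Markers of the cell types that carry these genes were read on the same arrays. In bulk tissue, fewer cells of a type and less RNA per cell cannot be told apart. Of 9 endothelial markers, all above the limit, 0 were called by limma in either sex (0 also at an unadjusted p below 0.05), and their summed signal was 7055 to 9352 in male TAC against 8475 to 9567 in male sham, and 9541 to 9905 in female TAC against 9093 to 10388 in female sham. Of 9 ventricular cardiomyocyte markers, all above the limit, 4 fell in males and 7 in females, with summed signals of 275510 to 335930 in male TAC against 326580 to 393430 in male sham and of 239430 to 309180 in female TAC against 339470 to 370010 in female sham. The median log2 fold change of these markers averaged over the sexes was -0.34, against -1.25 for Adra1b. Their part in the fall of Adra1b was not tested.

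Of 9 smooth muscle and pericyte markers, 8 above the limit, 2 rose in males and 1 fell in females (summed signal 16581 to 19252 in male TAC against 14739 to 19539 in male sham, and 14528 to 20234 in female TAC against 20242 to 23706 in female sham). Fibroblast markers rose for 5 of 8 in males and 3 of 8 in females, and macrophage markers for 5 and 2 of 9. Of 7 atrial markers with a probe set, 4 were above the limit, and Myl4 and Nppa, which the stressed ventricle also expresses, rose in both sexes. The atrial genes Myl7, Sln and Fgf12 were below the limit, Myl7 at 136.5 to 748.4 in male TAC against 8.3 to 71.7 in male sham. In females Myl7 overlapped, its lowest TAC array (15.9) lying below its highest sham array (129.3). Fgf12 averaged 99.2 in male TAC against 188.15 in male sham, and 99.4 in female TAC against 89.03 in female sham. Stard10 and Bmp10, above the limit, were not called in either sex. After TAC the mean of Stard10 was lower (776 against 1024 in males, 637.3 against 771.8 in females). That of Bmp10 was higher (218.3 against 177.5 in males, 233 against 134.9 in females). Nerve and Schwann cell markers rose for 1 of 7 in males and 2 of 7 in females, 0 of 3 mast cell markers and the 1 adipocyte marker above the limit were called in either sex (0 also at an unadjusted p below 0.05), and all 5 epicardial and mesothelial markers were below the limit.

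**Figure D3:**
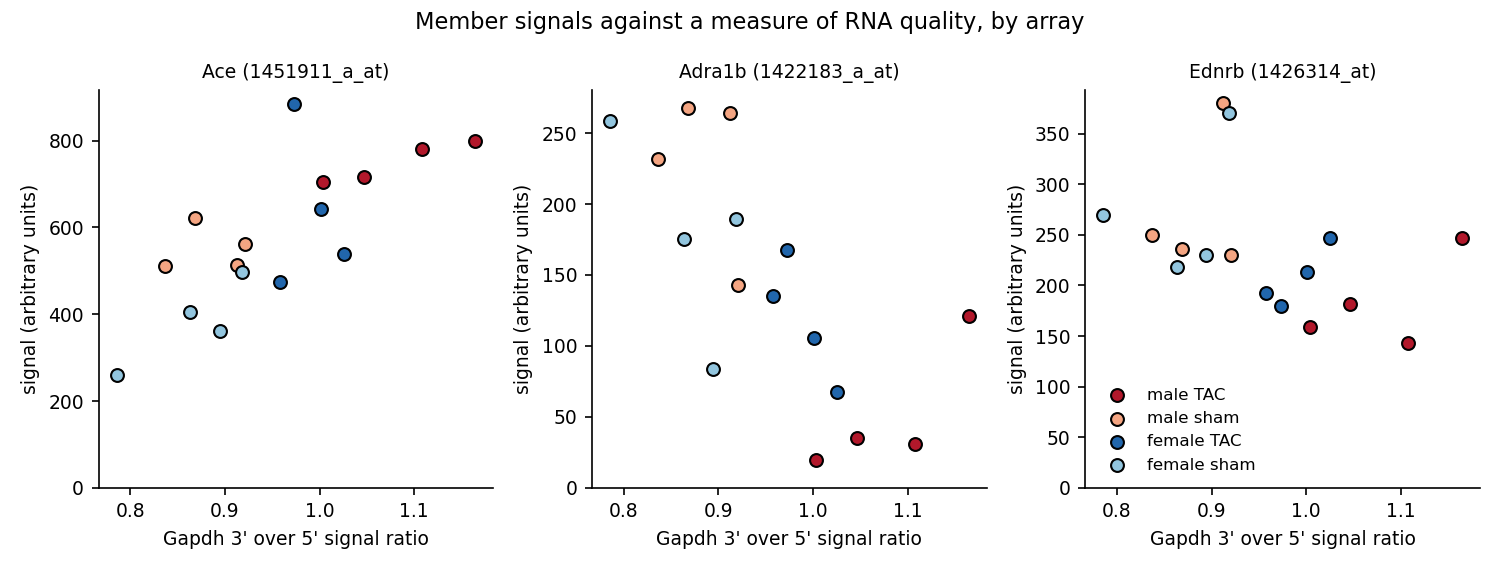
Signal in arbitrary units (vertical axis) against the Gapdh 3′ over 5′ signal ratio (horizontal axis) for Ace (1451911_a_at), Adra1b and Ednrb (1426314_at), 1 point per array, coloured by group. All TAC arrays lie at ratios of at least 0.958 and all sham arrays at 0.921 or less, so the ratio separates the operations as the labels do.

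The genes around the members were read from lists of ligands, enzymes, G proteins and effectors, 1 probe set per gene, that of highest mean. Of 19 genes for ligands and enzymes of the renin-angiotensin, endothelin and corticoid systems, 15 had a probe set and 9 were above the limit. Averaged over the sexes 1 of these rose and 1 fell, with a median log2 fold change of -0.03, equal to the median of -0.03 over all 13576 probe sets. Atp6ap2, the (pro)renin receptor and an accessory subunit of the vacuolar proton pump, rose to 1920.1, 2436.9, 1814.2 and 2221.6 in male TAC, against 860.1, 1157.3, 1156.9 and 989.1 in male sham, and to 2398.8, 2563.8, 2249.7 and 2109.2 in female TAC, against 1138.1, 1000.4, 1374.9 and 1263.6 in female sham (1437688_x_at). In both sexes every TAC array was above every sham array, with an averaged log2 fold change of 0.98 (adjusted p = 2.13e-07, and 0.0210 after adjusting for the Gapdh ratio). The probe sets of Atp6ap2 disagreed: 1439456_x_at also rose (0.51), while 1423662_at, which has no suffix for shared sequence, was at -0.25 and missed the threshold (adjusted p = 0.236).

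Hsd11b1, which regenerates active glucocorticoid, fell by 0.53 averaged over the sexes (adjusted p = 0.00555, and 0.497 with the Gapdh ratio). Endothelin-1, the ligand of both endothelin receptors, had a mean signal of 158.5 ± 70.2 in male TAC and 107.8 ± 60.8 in male sham, and 181.2 ± 29.0 in female TAC and 151.7 ± 46.6 in female sham, and its gene Edn1 did not pass the threshold (0.39, adjusted p = 0.296). Over the alternatives the averaged value of Edn1 depended on the setting, at 0.244 to 1.58, with a lowest limma adjusted p of 0.0539. The gene of the endothelin-converting enzyme, Ece1, was at 0.49 on 1455741_a_at and missed the threshold as well (adjusted p = 0.0580). Its other probe set above the limit, 1434177_at, was at 0.18 (adjusted p = 0.685), with -0.31 in males and 0.66 in females. The AT2 receptor gene Agtr2 was dim, at a mean signal of 34.03 ± 34.7 in male TAC and 7.0 ± 3.58 in male sham, and 8.10 ± 4.82 in female TAC and 28.3 ± 28.2 in female sham (SD, n = 4 each), with an averaged difference of 0.10 (adjusted p = 0.884).

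Among 25 other receptor genes and accessory proteins, 14 had a probe set and 7 were above the limit, of which 3 rose and 0 fell averaged over the sexes (median 0.60). They were Ramp3 (0.67, adjusted p = 0.00506) and Calcrl (0.60, adjusted p = 0.0116), partners in the adrenomedullin receptor, and Agtrap (0.93, adjusted p = 0.0156), whose product promotes internalisation of the AT1 receptor. Second probe sets of Calcrl (-0.91) and Agtrap (-0.59), both below the limit, had the opposite sign without passing. All 3 calls ended with either quality covariate: with the Gapdh ratio Agtrap was at 0.117 (adjusted p = 0.934), Ramp3 at 0.418 (adjusted p = 0.563) and Calcrl at 0.491 (adjusted p = 0.491). Of 15 genes of catecholamine and acetylcholine handling, 10 had a probe set and 6 were above the limit, and the 1 called was Ddc, lower (-0.54, adjusted p = 0.0443). This call ended without 11 of the 16 arrays, each left out alone, and under 6 of 10 other alternatives, with a highest adjusted p of 0.738 and a value of -0.304 with the Gapdh ratio.

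No probe set matched the muscarinic receptor gene Chrm2, while genes of its potassium channel had one. Kcnj3, a subunit of the channel that acetylcholine opens, fell by 0.46 averaged over the sexes (adjusted p = 0.0128, and 0.331 with the Gapdh ratio). Its partner Kcnj5 was dim and at -0.59 (adjusted p = 0.273).

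Of 18 G protein genes, 16 had a probe set and 14 were above the limit, of which 6 rose and 0 fell averaged over the sexes (median 0.21). Gnai2, an inhibitory α subunit to which M2 receptors couple, had means of 3533 ± 178 in male TAC and 2545 ± 99 in male sham, and of 3873 ± 252 in female TAC and 2850 ± 233 in female sham, without overlap in either sex on 1435652_a_at (0.46, adjusted p = 2.51e-05). Its other probe set, 1419449_a_at, was also above the limit and did not pass (0.21 averaged, adjusted p = 0.139, and 0.04 in females, adjusted p = 0.888). On probe sets other than that of highest mean Gna12 (1450097_s_at, -0.74, and 1421026_at, -0.72) and Gna13 (1422556_at, -0.79) were called lower. The brightest Gna12 probe set, 1455008_at, was at -0.19 and did not pass (adjusted p = 0.245). Gna13 was called higher on its brightest probe set (0.42) and on 1430295_at (0.89, adjusted p = 0.0360). With the Gapdh ratio Gna12 was at -0.220 on 1450097_s_at (adjusted p = 0.738) and at -0.785 on 1421026_at (adjusted p = 0.171). Gna13 on 1422556_at was at -0.459 with the 18S signal (adjusted p = 0.265).

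Of 19 genes for receptor kinases, arrestins and regulators of G protein signalling, 17 had a probe set and 11 were above the limit, and 3 rose and 1 fell (median 0.20). Rgs2, which shortens signals of Gq, the G protein of α1-adrenergic, AT1 and endothelin receptors, fell on both probe sets. On 1419247_at its signal was 284.4, 183.1, 133.0 and 307.2 in male TAC, against 832.9, 901.0, 873.1 and 949.5 in male sham, and 276.4, 205.6, 375.8 and 335.3 in female TAC, against 822.6, 948.3, 883.1 and 1074.1 in female sham. The groups were far apart in both sexes, with an averaged log2 fold change of -1.79 (adjusted p = 5.12e-08, and 0.00163 with the Gapdh ratio). Its other probe set, 1419248_at, was at -1.17 (adjusted p = 1.81e-05), and at -0.576 with the 18S signal (adjusted p = 0.0548). Grk5, a kinase that desensitises β-adrenergic receptors, rose by 0.65 (adjusted p = 0.00165), and was at 0.423 with the Gapdh ratio (adjusted p = 0.458). Rgs5, a regulator that marks pericytes, fell on 1420942_s_at (-1.63) and 1420941_at (-0.63), while 1417466_at (-0.20) and 1420940_x_at (-0.18) did not pass. The brightest probe set, the one counted in the list, is one of those that did not pass.

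In the cyclic AMP branch 25 of 33 genes had a probe set and 20 were above the limit, with 4 that rose and 4 that fell (median -0.12). Adcy7, an adenylyl cyclase, rose by 1.56 on 1456307_s_at (adjusted p = 2.19e-07). Of its dim probe sets, 1450065_at rose averaged over the sexes (0.99, adjusted p = 0.00936) but passed in neither sex alone. The other dim one, 1420970_at, did not pass (0.45, adjusted p = 0.431). Adcy6, a main cyclase of the cardiomyocyte, did not pass (-0.26, adjusted p = 0.0953). Pkia, an inhibitor of protein kinase A, fell on both probe sets, by 2.21 on 1420858_at and by 0.62 on 1420859_at (adjusted p = 1.08e-09 and 6.37e-05). Rapgef3, the cyclic AMP sensor Epac1, rose by 1.09 on 1424470_a_at (adjusted p = 0.000191), and was at 0.654 with the Gapdh ratio (adjusted p = 0.364). Of its other probe sets 1437012_x_at rose (0.57), while 1424471_at (0.49, adjusted p = 0.199) and the dim 1437946_x_at (-0.27, adjusted p = 0.677) did not pass.

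In the branch of phospholipase C and calcineurin 24 of 25 genes had a probe set and 19 were above the limit, with 4 that rose and 1 that fell (median -0.04). Rcan1, an inhibitor and target of calcineurin, rose by 1.58 (adjusted p = 4.89e-06, and 0.0955 with the Gapdh ratio). Ppp3cb, a catalytic subunit of calcineurin, fell by 1.08 on 1427468_at (adjusted p = 4.42e-07). On 1433835_at, also above the limit, it fell less, by 0.57 (adjusted p = 0.0139). There it was at -0.75 in females (adjusted p = 0.0384) and at -0.40 in males, which did not pass (adjusted p = 0.278). Camk2d fell by 0.83 on 1427763_a_at (adjusted p = 1.78e-05, and 0.0676 with the Gapdh ratio) and was at -0.12 on 1422659_at.

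**Figure D4:**
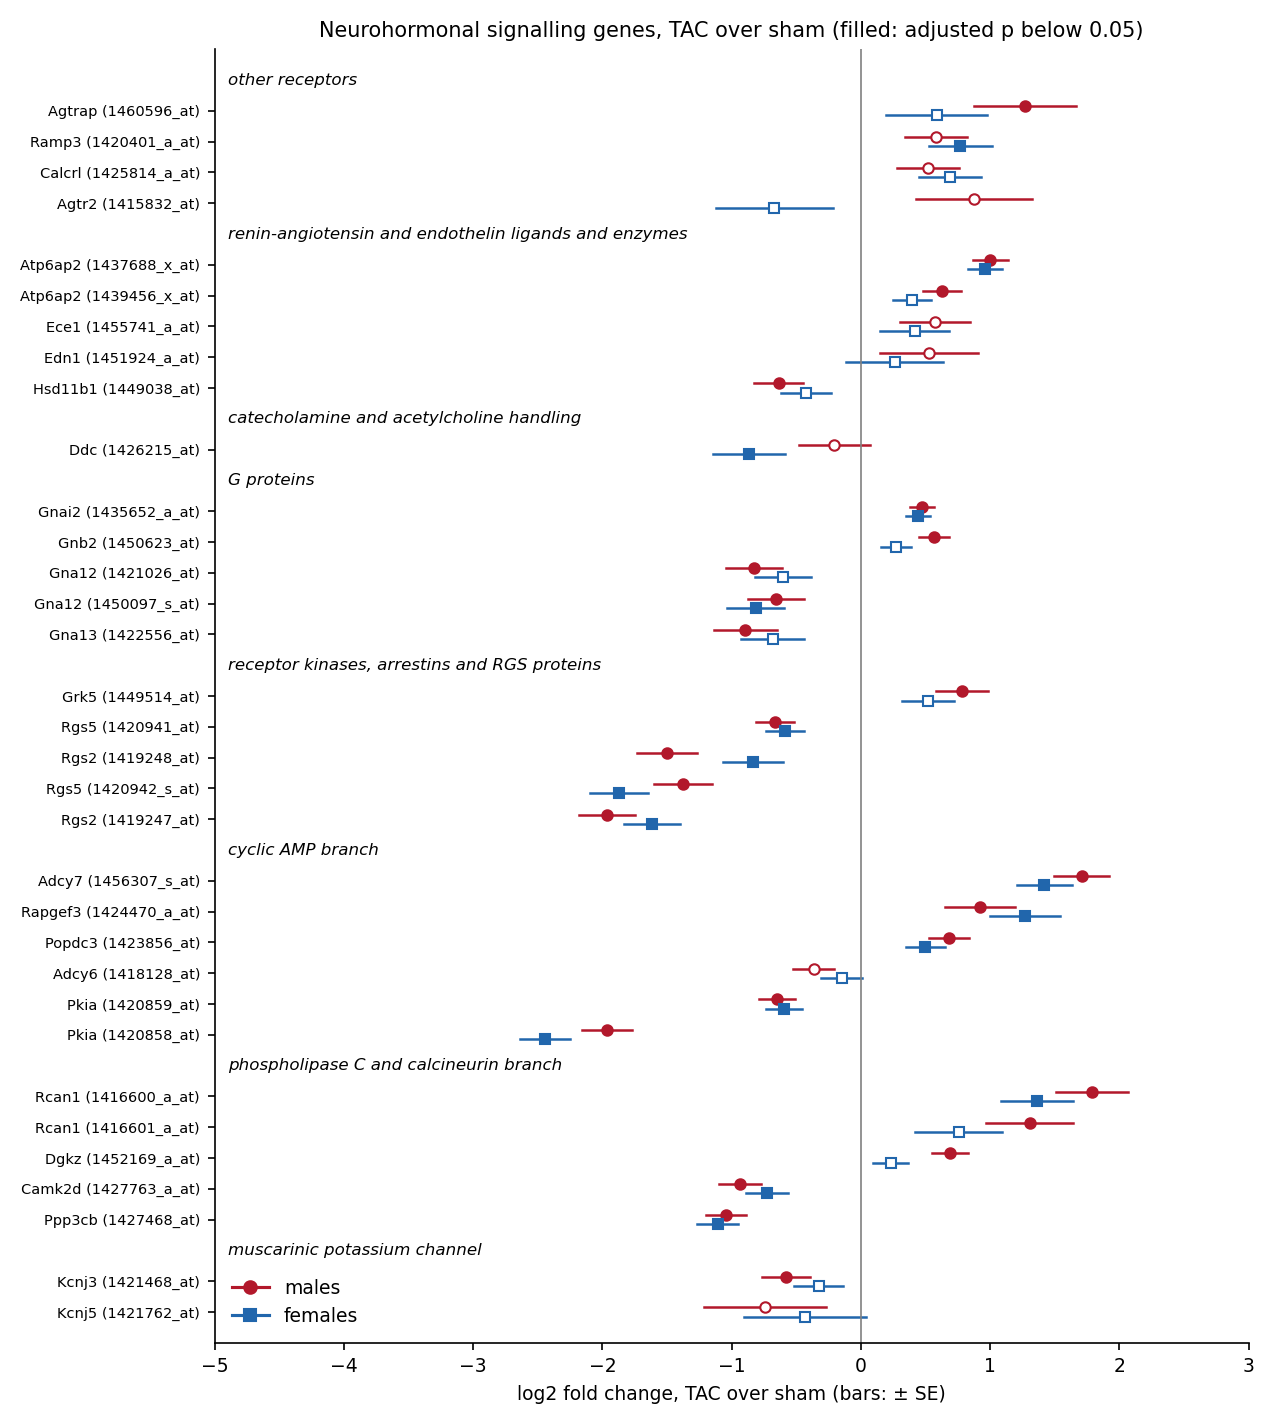
Log2 fold change of TAC over sham (horizontal axis, bars ± SE) in males and females for the 33 probe sets of signalling genes named by the fixed rule, grouped by list; filled symbols have adjusted p below 0.05. Rgs2, Pkia and Ppp3cb lie to the left of 0, and Adcy7, Rcan1 and Atp6ap2 to the right, in both sexes.

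Of these 33 probe sets 28 were called averaged over the sexes, 14 higher and 14 lower, a split that the choice by smallest p shaped. That choice also favours groups without overlap, as seen for Atp6ap2, Gnai2 and Rgs2. In males 19.6% of all probe sets above the limit had no overlap, and the share in females is not given here. Adjusting for the Gapdh ratio kept 8 of the 28 calls and adjusting for the 18S signal 18, and no sign turned among the 28.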

How the data were processed

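RNA of 16 left ventricles was measured on 1 Affymetrix array each. Signal intensities were computed with GCOS, per the submitters' processing notes, and its version and settings are not given in the sources used here. The authors deposited linear intensity values, already scaled globally: after trimming 2% at each end the mean signal was 500.21 to 500.25 on every array. The series text calls the array RAE 430A, while its probe set names match the mouse platform annotation. Of 22626 probe sets without controls, 20380 had 1 symbol, 691 several and 1555 none. By Entrez ID 20364 were found in RefSeq (GRCm38.p6), and 0 symbols changed.

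Signals were transformed as log2(signal + 16). The 64 control probe sets and the dimmest 40% were left out, and limma 3.58.1 in R 4.3.3 was fitted to 13576 probe sets with 4 group means, an intensity trend and 2-sided tests. Dim members came from the same model on all 22626. On simulated data for the male comparison with 13576 probe sets, 61% of 200 changes of 1 log2 unit were recovered, with 3 false calls. In the data a far larger share, 17.8%, was called in this comparison. The adjustment acts differently there, so the 61% need not hold for the data. Alternatives changed the scaling (quantile, or centring on array medians), the pseudocount (1 or 64), the limit (none, or 60%), the trend, the groups in the fit, a replicate block, RNA quality covariates, and single arrays. The members, lists and alternatives were chosen with earlier results of these data known. Named signalling genes are up to 5 called probe sets per list by smallest p averaged over the sexes, plus 17 fixed genes, of which those with a probe set are given. The design text of the series calls the replicates biological. Same-numbered arrays of a sex deviated together with correlations of only -0.0302 to 0.115. Such low values show no pairing of the animals by number, and they cannot exclude one. Scan dates were not analysed here. Precision is limited by 4 arrays per group.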

Additional observations from a re-analysis of the deposited data

Results flagged for a closer look

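Of 24 sets of 4 arrays, 6 probe sets in 4 groups, 2 held an array whose distance to its nearest neighbour exceeded 0.829 of the range of the group on the log2(signal + 16) scale, a limit that chance passes for about 1 group in 20. Agt had a signal of 127.9 on female TAC 3, against 7.4 to 15.5 on the other female TAC arrays. Ednrb (1426314_at) had a signal of 380.7 on male sham 2, against 230.2 to 250.1 on the other male sham arrays. Without that array the averaged difference of Ednrb was -0.36 (adjusted p = 0.113). On the linear signals, a scale added after seeing the data, 4 of the 24 sets passed the same limit: these 2, Agt in male TAC and Adra1b in male TAC. In male TAC 2 Agt reached 37.0, while the rest of male TAC lay at 17.1 to 20.0. In the same animal Adra1b reached 121.1, while the rest of male TAC lay at 19.8 to 35.3, a gap of 0.847 of the range on the linear scale and 0.732 on the log2 scale. Without that array the male difference of Adra1b was -2.42 (adjusted p = 0.000890).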

How the results depend on the processing

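Over 36 results of the 6 probe sets and 750 alternatives, 672 kept direction and side of the threshold, 24 lost a call, 0 gained one and 54 turned sign, in 17 results of which 0 were called. The count of called probe sets was 0 in males with the dimmest 60% left out, with the Gapdh ratio and with the 18S signal, and 0 in females with the Gapdh ratio. Averaged over the sexes it was 1 with 60% left out, 0 with the Gapdh ratio and 1 with the 18S signal. Without single arrays it was 0 to 1 in females. The replicate block left the counts at 1 in males, 1 in females and 3 averaged, while the call of Ddc averaged over the sexes ended (-0.546, adjusted p = 0.104). With the block Agt was at 0.0320 in males, 0.0514 in females, 0.0417 averaged and -0.203 for female against male TAC, Ednrb (1423594_a_at) at -0.0683 for female against male TAC, and Ace (1427034_at) at 0.264 in females. Quantile normalization and median centring gave, in females, 0.0138 and 0.0499 for Agt, 0.0301 and 0.0169 for Ednrb (1423594_a_at) and 0.0336 and 0.0538 for Ace (1427034_at), and for female against male sham 0.0107 and 0.00561 for Ednrb (1426314_at). Agt was at -0.223 for female against male TAC with a pseudocount of 1 and at 0.0596 in females with 64. With the Gapdh ratio Ednrb (1423594_a_at) was at 0.0284 in males, 0.0611 in females, 0.0448 averaged and -0.101 for female against male TAC, Ednrb (1426314_at) at 0.0452 for female against male sham, Ace (1451911_a_at) at -0.0443 in males, Agtrap at -0.0699 and Kcnj5 at 0.00402 in females, Ddc at 0.0704 in males, and Agtr2 at -0.350 averaged. With the 18S signal Ednrb (1423594_a_at) was at -0.00567 for female against male TAC, Ace (1427034_at) at -0.172 in males and -0.381 averaged, and Ece1 at -0.124 in males and -0.0569 averaged. Leaving out single arrays gave ranges that cross 0: in females -0.683 to 0.190 for Agt, -0.365 to 0.0762 for Ednrb (1423594_a_at), -0.435 to 0.334 for Ace (1427034_at) and -0.269 to 0.00800 for Adcy6; for the female minus the male response -0.350 to 0.524 for Agt and -0.158 to 0.283 for Ednrb (1423594_a_at); for female against male sham -0.282 to 0.160 for Ednrb (1423594_a_at) and -0.161 to 0.150 for Ednrb (1426314_at); for female against male TAC -0.571 to 0.302 for Agt, -0.0808 to 0.125 for Ednrb (1423594_a_at) and -0.614 to 0.0574 for Ace (1427034_at); and averaged -0.101 to 0.284 for Agtr2. With 60% left out, Ace (1451911_a_at) was the only one of the 6 still tested. The cause of these changes was not tested.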
